A study of Drosophila yakuba and Drosophila melanogaster with 20 samples.

Results

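The base differences described here are places on the Drosophila melanogaster mitochondrial genome where RNA sequencing reads carried another base than the dm3 reference. Every line on the mitochondrial chromosome was taken from the 4 deposited tables of adult head RNA, the listed base was written in upper case, and its original letter case was read as the read strand. That gave 2865 distinct differences (a position together with the listed base) at 2570 positions, of 1724759 distinct differences on all chromosomes. The remaining 1721894 lay on nuclear chromosomes and scaffolds and are the comparison throughout.

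The study set inosine-detecting libraries beside ordinary RNA libraries from fly heads. Of its 20 samples, 4 had a base-difference table here. These were NextSeq replicates 1 and 2, with 86-nt reads, and HiSeq replicates 1 and 2, with 50-nt reads. All 4 came from adult heads of the strain y; cn, bw, sp, which carries body colour, eye colour and wing markers. The nuclear genome of that strain is the fly reference. Whether the dm3 mitochondrial sequence also came from it was not tested. RNA from about 50 pooled heads (5 µg in total) was selected with oligo(dT), fragmented, mock-treated without acrylonitrile and primed with random hexamers. The protocol text speaks of D. yakuba strains and gives no separate account for this species, nor an age beyond adult. The labels do not tell whether replicates 1 and 2 are different flies, or whether each instrument read the same 2 preparations, so p-values measure only the spread between these 4 libraries. Instrument and read length cannot be told apart. The tables hold no expression values, so the tissue was not checked against marker genes.

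Fly mitochondrial DNA encodes core subunits of the respiratory chain, the mitochondrial ribosomal RNAs and transfer RNAs, and it is rich in A and T. Long precursors are copied from both strands and cut into messenger RNAs that receive short poly(A) tails, so that oligo(dT) selection recovers them. Each cell holds many copies of this genome, which can differ from one another. ADAR, the enzyme that turns adenosine into inosine and so gives A-to-G in sequencing, acts on nuclear transcripts in fly neurons. Purine-to-purine and pyrimidine-to-pyrimidine changes (A-to-G, T-to-C, G-to-A and C-to-T) are called transitions, and the other 8 kinds are transversions.

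Differing positions lay close together, and the longest unbroken runs of them are shown as examples of that density. Sequences are the dm3 plus strand, 5′ to 3′, read from the reference-base column of the tables, with capitals marking positions listed in 2 or more libraries.
chrM:1477-1487: cgACAaTgatt
chrM:2652-2660: CtgAtACCc
chrM:9613-9621: acctAaggC
The run at chrM:1477-1487 covered 11 bp and held 17 differences, with 4 of its positions in 2 or more libraries. Its differing positions numbered 4 and 3 in NextSeq replicates 1 and 2, and 3 and 6 in HiSeq replicates 1 and 2, so no single library listed the whole run. The run at chrM:2652-2660 held 12 differences over 9 bp, with 7 and 1 differing positions in NextSeq replicates 1 and 2 and 4 and 5 in HiSeq replicates 1 and 2. At chrM:9613-9621 there were 11 differences over 9 bp, with 3 and 2 positions in NextSeq replicates 1 and 2 and 6 and 1 in HiSeq replicates 1 and 2. No library listed every position of any of the 3 runs. Of the 9 positions at chrM:2652-2660, 5 stood in 2 or more libraries, and 2 of the 9 at chrM:9613-9621 did. Over all 2570 positions the median distance to the next was 3 bp, and 782 neighbours were adjacent.

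NextSeq replicates 1 and 2 listed 932 and 1294 mitochondrial differences, and HiSeq replicates 1 and 2 listed 554 and 678. On all chromosomes the same tables listed 419113 and 1087962 differences for NextSeq and 115079 and 196988 for HiSeq. The tables give no read counts, so depth is unknown, and a position that a library does not list may have been uncovered or unchanged.

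Transitions made up a larger share of the mitochondrial differences than of the nuclear ones in each of the 4 libraries. In NextSeq replicates 1 and 2 the transition share was 24.7% and 25.3% among mitochondrial differences, against 9.45% and 8.23% among nuclear differences. In HiSeq replicates 1 and 2 it was 48.6% and 49.0% among mitochondrial differences, against 40.6% and 43.8% among nuclear differences. The mean difference was 11.3 percentage points (SD 5.71, n = 4), with p = 0.13 in a two-sided exact sign-flip permutation test over libraries. That is the smallest p that 4 libraries allow, so no comparison of this design can pass 0.05.

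A-to-G and T-to-C, the kinds that A-to-I editing gives on transcripts of either strand, were part of that excess. Their joint share was 16.0% and 16.8% among mitochondrial differences of NextSeq replicates 1 and 2 (149 of 932 and 217 of 1294), against 5.83% and 4.90% of nuclear differences. In HiSeq replicates 1 and 2 it was 24.7% and 28.9% of mitochondrial differences (137 of 554 and 196 of 678), against 20.2% and 21.9% of nuclear differences. The mitochondrial share was higher in 4 of 4 libraries, by 8.39 points on average (SD 3.28, exact sign-flip permutation p = 0.13). The mitochondrial lists also had more differences at a reference A or T: 76.3% and 74.1% in NextSeq and 58.8% and 64.6% in HiSeq, against 72.2% and 69.6% in NextSeq and 50.8% and 50.7% in HiSeq among nuclear differences. With each reference base weighted equally, the mean difference was 8.05 points, made of 12.9 and 15.6 points in NextSeq replicates 1 and 2 and only 2.04 and 1.66 points in HiSeq replicates 1 and 2.

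**Figure D1:**
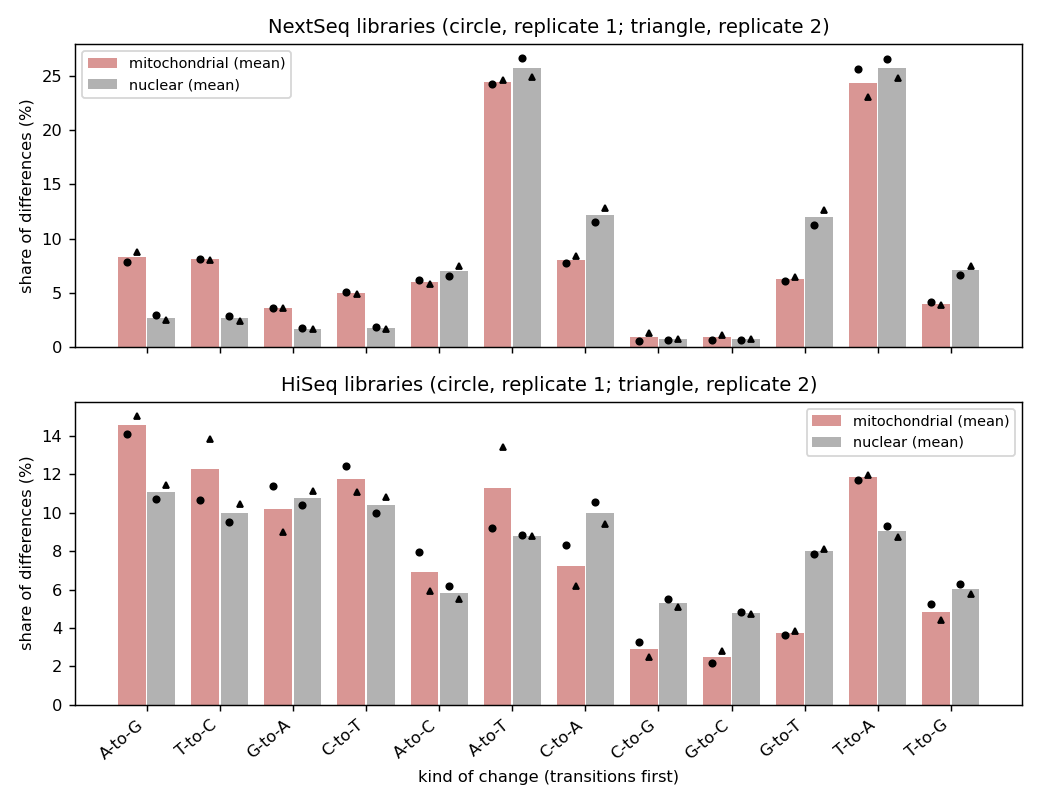
Share of distinct differences (%) of each of the 12 kinds of change in the NextSeq (top) and HiSeq (bottom) libraries; bars are means of 2 libraries, and circles and triangles are replicates 1 and 2. A-to-G and T-to-C bars are taller for mitochondrial than for nuclear differences on both instruments, while A-to-T and T-to-A dominate both NextSeq lists.

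Of the 12 kinds, 6 lay on the same side of the nuclear share in all 4 libraries, and 5 did against dense nuclear windows or with differences in all 4 libraries left out. C-to-T was the kind lost in both, where HiSeq replicate 2 turned to -0.0796 and -0.614 points. Higher among mitochondrial differences were A-to-G (11.4% ± 3.67, against 6.89% ± 4.83 of nuclear differences; SD, n = 4), T-to-C (10.2% ± 2.74, against 6.32% ± 4.25) and C-to-T (8.36% ± 3.97, against 6.08% ± 5.00). Lower were G-to-T (5.01% ± 1.50, against 9.98% ± 2.37), C-to-A (7.66% ± 1.02, against 11.1% ± 1.44) and T-to-G (4.43% ± 0.585, against 6.55% ± 0.743). The SDs are wide because the instruments differ, while the test is made within libraries. Each of these 6 had an exact sign-flip permutation p of 0.13 and a Benjamini-Hochberg adjusted p of 0.25 over the 12 kinds. A-to-T (17.9% ± 7.78, against 17.3% ± 9.81) and T-to-A (18.1% ± 7.29, against 17.4% ± 9.66) had mean differences of 0.606 and 0.721 points. They led both NextSeq lists, but in HiSeq replicates 1 and 2 mitochondrial A-to-G (14.1% and 15.0%) exceeded A-to-T (9.21% and 13.4%) and T-to-A (11.7% and 11.9%). A-to-C, G-to-A, C-to-G and G-to-C differed by 0.0221, 0.666, -1.12 and -1.06 points, and none of the 4 lay on one side in every library.

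Shares within 1 reference base do not depend on how many differences lie at each base. Among differences at a reference C, C-to-T was the higher in the mitochondrial lists of all 4 libraries. It was 37.9% and 33.3% of mitochondrial differences in NextSeq replicates 1 and 2, against 13.1% and 11.0% of nuclear differences. In HiSeq replicates 1 and 2 it was 51.9% and 56.0% of mitochondrial differences, against 38.3% and 42.7% of nuclear differences. G-to-A at a reference G was likewise higher in all 4 libraries, by 18.9 points on average (exact sign-flip permutation p = 0.13), although its share of all differences was not. It was 35.1% and 32.2% of mitochondrial differences in NextSeq replicates 1 and 2, against 12.9% and 10.9% of nuclear ones, and 66.3% and 57.5% of mitochondrial differences in HiSeq replicates 1 and 2, against 45.1% and 46.4% of nuclear ones. T-to-C at a reference T was higher in all 4 libraries, by 8.54 points on average. A-to-G at a reference A was higher in 3 of 4, since in HiSeq replicate 2 it was 43.8% of mitochondrial and 44.5% of nuclear differences.

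Turning each entry into the orientation of its read separated kinds that the genome strand merges. In NextSeq, T-to-A on the read was the leading kind, at 30.6% ± 0.0347 of mitochondrial entries, against 41.8% ± 1.03 of nuclear entries (SD, n = 2). A-to-G on the read was 11.1% ± 0.276 of mitochondrial entries and 3.97% ± 0.537 of nuclear entries in NextSeq. T-to-C on the read, its complement, was 5.94% ± 0.883 of mitochondrial entries and 1.45% ± 0.119 of nuclear entries. In HiSeq, A-to-G on the read was 16.3% ± 0.939 of mitochondrial and 14.3% ± 0.0276 of nuclear entries, and T-to-C was 10.7% ± 1.71 of mitochondrial and 6.81% ± 1.28 of nuclear entries. A-to-G on the read thus outnumbered T-to-C in both compartments on both instruments. The authors remapped unmapped reads with an option that names these bases (-M GA), and its part in this excess was not tested. Forward-strand entries were 49.9% and 51.9% of the mitochondrial entries in NextSeq and 57.5% and 53.4% in HiSeq, against 50.1% and 50.1% in NextSeq and 56.0% and 52.9% in HiSeq for nuclear entries.

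Along the genome the differing positions were uneven. In the 32 windows of 500 bp from position 1 to 16000, the median density was 56.75 positions per kb per library. Sequence beyond position 16000 was left out of the windows. The densest window, chrM:1501-2000, held 47 and 65 differing positions in NextSeq replicates 1 and 2 and 32 and 60 in HiSeq replicates 1 and 2, a mean of 102 ± 29.5 per kb (SD, n = 4). Of its positions, 28 were listed in 2 or more libraries. Next came chrM:2501-3000, with 49 and 47 positions in NextSeq and 36 and 41 in HiSeq (86.5 ± 11.8 per kb), the smallest SD of the 5 densest windows. The window chrM:8501-9000 held 45 and 83 positions in NextSeq and 20 and 20 in HiSeq (84 ± 59.5 per kb). NextSeq replicate 2 stood far above the other libraries there, and both HiSeq libraries were lowest.

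The other windows of the top 5 were chrM:4501-5000, with 49 and 54 positions in NextSeq and 29 and 34 in HiSeq (83 ± 23.8 per kb), and chrM:2001-2500, with 52 and 51 in NextSeq and 31 and 25 in HiSeq (79.5 ± 27.6 per kb). At the low end, chrM:15001-15500 and chrM:15501-16000 held no position in any library. The longest gap between listed positions, 1621 bp, ran from chrM:14776 to the last one, chrM:16397. Sequence beyond the last listed position was not measured. Position 16397 carried C16397T in 2 libraries and C16397A in 1; in these tokens the reference base stands first, then the dm3 position counted from 1, then the listed base. Inside the covered range, chrM:6001-6500 held 5 and 7 positions in NextSeq and 2 and 5 in HiSeq, and chrM:9001-9500 held 10 and 6 in NextSeq and 8 and 1 in HiSeq. The window chrM:10001-10500 held 8 and 19 in NextSeq and 6 and 7 in HiSeq. No gene is assigned to these windows because no dm3 annotation was used here, and how far read coverage sets the pattern was not tested.

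**Figure D2:**
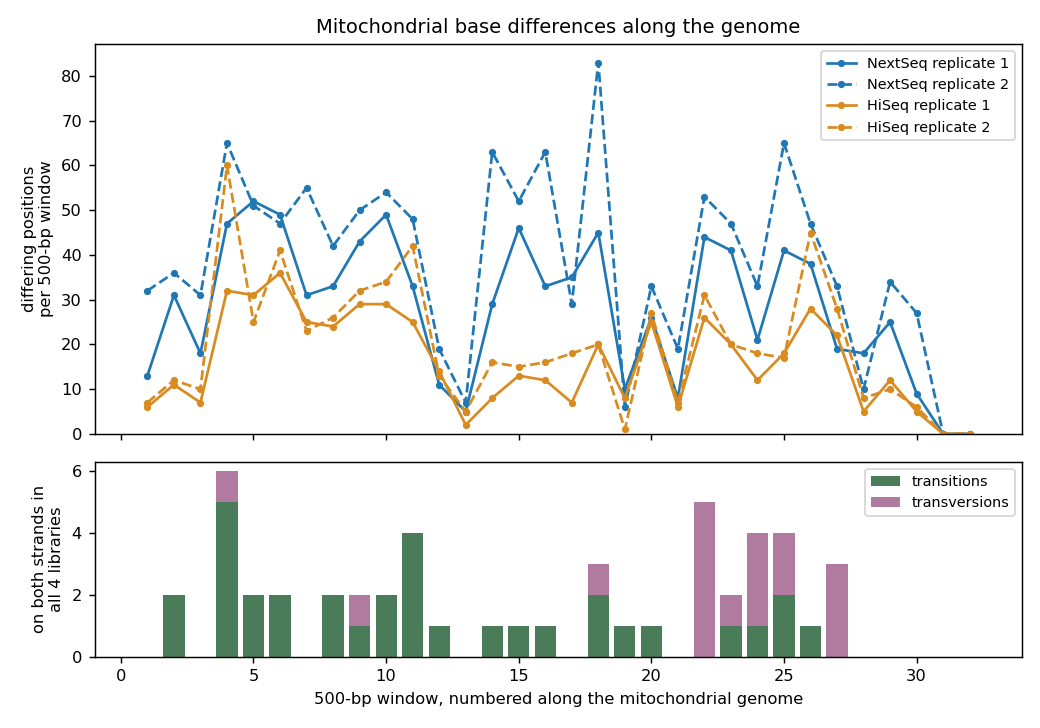
Top, differing mitochondrial positions per 500-bp window in each library; bottom, differences on both read strands in all 4 libraries per window, split into transitions and transversions. Windows 13 and 19 are low in every library, windows 31 and 32 are empty, and transversions fall mostly in windows 22 to 27.

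The 4 profiles followed one another in shape. Over 32 windows Pearson's r was 0.846 between the NextSeq libraries and 0.891 between the HiSeq libraries, with Spearman's rho 0.823 and 0.928. Across instruments r ranged from 0.625 to 0.805. Windows of one genome share transcript levels and sequence, so these are descriptions of likeness. Mitochondrial windows were far denser than nuclear ones: the median occupied window held 31 and 42 differing positions in NextSeq replicates 1 and 2 and 16 and 18 in HiSeq replicates 1 and 2, against 3 and 4 in NextSeq and 2 and 2 in HiSeq for nuclear windows. Only 2.74% and 3.35% of occupied nuclear windows in NextSeq, and 1.14% and 1.01% in HiSeq, reached the mitochondrial median of their library.

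Positions with more than 1 alternative base were more frequent in the mitochondrial lists of 3 libraries, but on average not when nuclear windows of like density were the comparison. Within a library they made up 3.10% and 4.70% of mitochondrial positions in NextSeq replicates 1 and 2 (28 of 904 and 58 of 1235), against 1.34% and 1.71% of nuclear positions. In HiSeq replicates 1 and 2 they made up 6.76% and 6.78% of mitochondrial positions (35 of 518 and 43 of 634), against 6.84% and 4.38% of nuclear positions. The mean difference was 1.77 points (SD 1.33), higher in 3 of 4 libraries (exact sign-flip permutation p = 0.25). Against nuclear windows at least as dense as the mitochondrial median, the difference was -0.0754 points, with NextSeq above (0.531 and 1.52) and HiSeq below (-1.91 and -0.437).

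Over the 4 libraries together, 277 of 2570 mitochondrial positions (10.8%, exact 95% interval 9.61% to 12%) had more than 1 alternative base, against 4.07% of 1652613 nuclear positions. This pooled share was not compared with dense nuclear windows, against which the mean difference within a library was -0.0754 points. How far density and recurrence across libraries raise the pooled share was not tested. Of the 277, 259 had 2 bases and 18 had all 3. In 152 of them the bases met within a library, and in 125 only across libraries. The transition was one of the listed bases at 61 of 101 such positions with reference A (60.4%) and 71 of 89 with T (79.8%). It was so at 43 of 52 with C (82.7%) and 31 of 35 with G (88.6%). At positions with a single alternative base, the transition was that base in 25.2% (A), 23.8% (T), 39.8% (C) and 40% (G). A position that holds 2 of 3 bases, picked evenly, includes any given one in 2 of 3 cases. The share at reference A lay below that. Shares at positions with 1 base and with more are thus not alike in what they allow. The commonest pairs were A and C at reference T (53 positions), C and T at reference A (40), G and T at reference A (36) and A and T at reference C (30). A position listed all 3 bases within a single library at 12497 (NextSeq replicate 2), 4182 (HiSeq replicate 1) and 12975 (HiSeq replicate 2).

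Most mitochondrial differences were listed once. Of 2865, 2447 (85.4%) stood in 1 library, 306 (10.7%) in 2, 49 (1.71%) in 3 and 63 (2.20%, exact 95% interval 1.69% to 2.80%) in all 4. The nuclear shares were 95.3%, 4.24%, 0.314% and 0.194% (3348 differences in all 4). Mitochondrial counts did not fall steadily with recurrence, since more differences stood in 4 libraries than in 3, while the nuclear counts fell at each step. Intervals cover counting error only. Mitochondrial positions were also listed more densely than nuclear ones, and the part of that density in the recurrence was not tested.

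With all differences counted, transitions became more frequent with recurrence in both compartments. Their mitochondrial share was 28.0% in 1 library, 37.3% in 2, 53.1% in 3 and 66.7% in 4 (42 of 63, exact 95% interval 53.7% to 78.0%). The nuclear shares were 13.2%, 23.4%, 35.5% and 37.9%. Among the 63 were 19 A-to-G or T-to-C and 23 G-to-A or C-to-T differences. Among the 3348 nuclear differences in 4 libraries these numbers were 666 and 603, and 362 of the 666 were on the study's list of 1238 editing sites, which holds 0 mitochondrial sites. Without listed sites, the nuclear transition shares in 1, 2, 3 and 4 libraries were 13.2%, 23.1%, 32.9% and 30.4%. The last step there was a fall. In 4 libraries, 304 A-to-G and T-to-C and 603 G-to-A and C-to-T then remained. Among nuclear differences in 4 libraries, A-to-G and T-to-C thus led with the listed editing sites and trailed without them. Leaving out listed sites took members of these kinds alone from that class, so their drop was fixed in direction. It left 304 of 666 in 4 libraries and 800 of 1011 in 3, and the fall at the last step came from this removal. The part of editing in either compartment was not tested. Among the 63 mitochondrial differences, A-to-G and T-to-C were the smaller group, 19 against 23. In fewer libraries they were the larger mitochondrial group: 17 against 9 in 3, 69 against 45 in 2 and 434 against 250 in 1.

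**Figure D3:**
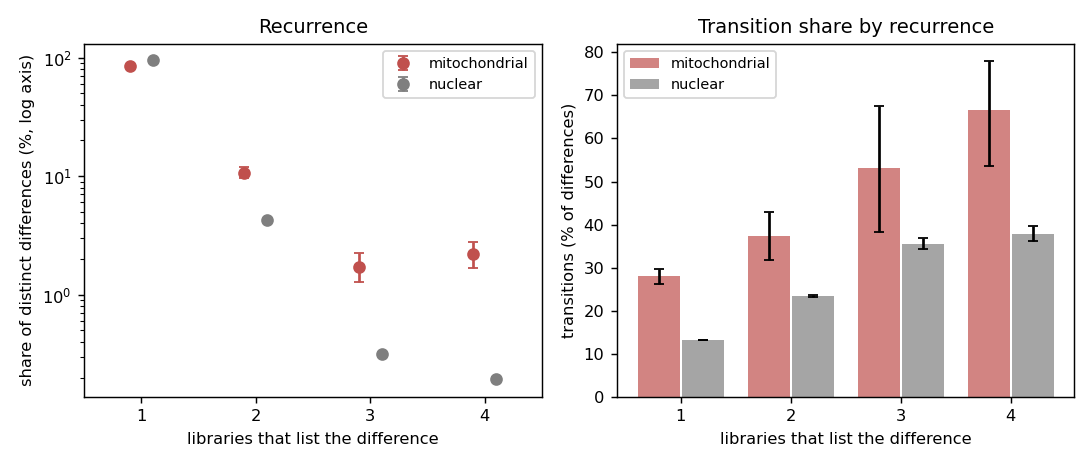
Left, share of distinct differences (%, log axis) listed in 1, 2, 3 or 4 libraries; right, share of transitions (%) in each class; error bars are exact 95% binomial intervals. The mitochondrial share in 4 libraries is 2.20%, above its share in 3 (1.71%), and the mitochondrial transition share climbs to 66.7%.

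Libraries with the same replicate number shared more than libraries with different numbers across instruments. NextSeq replicate 2 and HiSeq replicate 2 shared 188 mitochondrial differences, which is 14.5% of the NextSeq list and 27.7% of the HiSeq list. NextSeq replicate 1 and HiSeq replicate 1 shared 148 (15.9% and 26.7%). The crossed pairs shared 108 (NextSeq replicate 1, 11.6%, with HiSeq replicate 2, 15.9%) and 118 (NextSeq replicate 2, 9.12%, with HiSeq replicate 1, 21.3%). Of differences found in exactly 2 libraries, 94 were in both replicates numbered 2, 67 in both numbered 1, 64 in both NextSeq libraries and 30 in both HiSeq libraries, with 28 and 23 in the crossed pairs. For nuclear differences too, same-numbered pairs shared more than crossed ones. They shared 14.6% (number 1) and 13.6% (number 2) of the HiSeq list, and the crossed pairs shared 4.37% (HiSeq replicate 2) and 8.65% (HiSeq replicate 1). Within an instrument, the NextSeq libraries shared 151 mitochondrial and 38204 nuclear differences. The HiSeq libraries shared 118 and 9144. No test of these counts is given, since differences within a library are not independent.

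Appearance on both read strands set the mitochondrial differences in all 4 libraries apart. Of mitochondrial differences in 1, 2 and 3 libraries, 31 of 2447, 2 of 306 and 0 of 49 were on both strands wherever listed. Over all differences, 7.08% and 6.03% of mitochondrial ones in NextSeq replicates 1 and 2 were listed in both letter cases, against 0.923% and 0.890% of nuclear ones. In HiSeq replicates 1 and 2 it was 11.7% and 11.1% of mitochondrial differences, against 2.25% and 2.38% of nuclear ones. The mean difference was 7.37 points (SD 2.05), higher in 4 of 4 libraries (exact sign-flip permutation p = 0.13). With differences in all 4 libraries left out on both sides, it was 1.25 points. Mitochondrial shares were then 1.27% and 1.87% in NextSeq and 2.44% and 3.25% in HiSeq, against nuclear shares of 0.594% and 0.741% in NextSeq and 0.978% and 1.50% in HiSeq. Among the 63 differences in all 4 libraries, 55, 55, 53 and 55 were on both strands in NextSeq replicates 1 and 2 and HiSeq replicates 1 and 2, or 84.1% to 87.3%, against 41.7% to 53.0% of the 3348 nuclear ones.

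**Figure D4:**
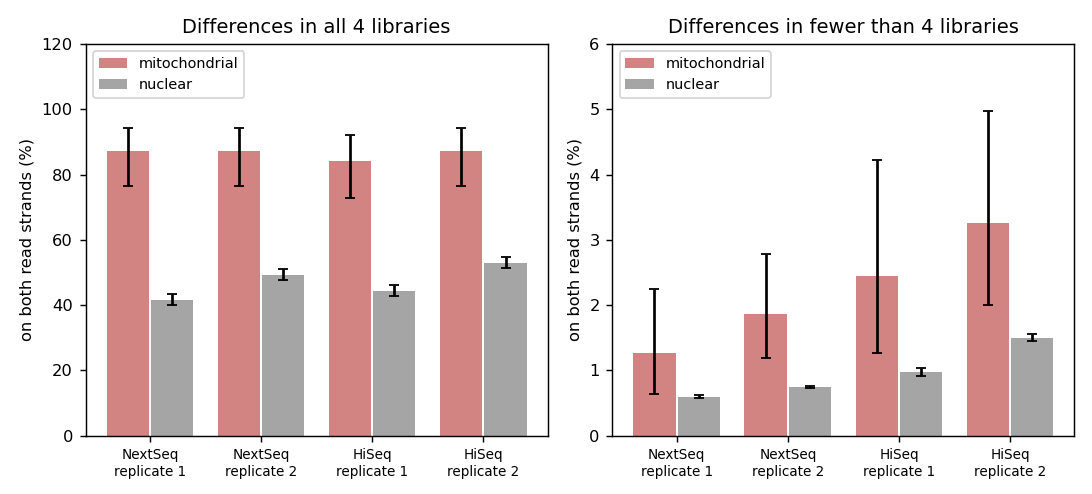
Share of differences (%) listed on both read strands in each library, for differences in all 4 libraries (left) and in fewer (right, on a smaller scale); error bars are exact 95% binomial intervals. Mitochondrial differences in all 4 libraries lie between 84.1% and 87.3%, and those in fewer lie at or below 3.25%.

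A set of 50 mitochondrial differences was listed on both read strands in every library, 79.4% of the 63 (exact 95% interval 67.3% to 88.5%), against 624 of 3348 nuclear ones (18.6%). Transitions made up 33 of the 50 (66%, 51.2% to 78.8%), against 38.1% of the 624 and 23.9% of those outside the editing-site list. Leaving out listed sites took only A-to-G and T-to-C members from the nuclear set, and the list holds 0 mitochondrial sites. The lower nuclear share without them was thus fixed in direction. The kinds were C-to-T (9), T-to-C (9), G-to-A (8), A-to-G (7), C-to-A (4), A-to-C (3), A-to-T (3), T-to-A (3), T-to-G (2) and G-to-C (2), with 0 C-to-G and 0 G-to-T. The 50 held 16 A-to-G or T-to-C and 17 G-to-A or C-to-T differences, so the balance between them was close to even. In the nuclear set the leading kinds were C-to-A (136), G-to-T (123) and A-to-G (95). Outside the editing-site list A-to-G numbered 17, and T-to-A (61), A-to-T (56) and C-to-T (56) then ranked above it.

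At 42 of the 50 positions no library listed any other base, and at the other 8 at most 2 libraries did. The first 10 along the genome with no other base were C735T, A791G, T1512C, A1779T, A1836G, T1861C, G1929A, C2187T, C2862T and T3517C. Of these 10, only A1779T is a transversion. The 50 lay between positions 735 and 13293, with a median gap of 162 bp and a largest gap of 1039 bp, from 5943 to 6982.

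Transitions and transversions of the set lay in different stretches. Up to position 10000 there were 31 members, of which 28 were transitions and 3 transversions. Beyond it there were 19, of which 5 were transitions and 14 transversions. The boundary was chosen after the values were seen, so the split is a description. Of the 17 transversions, 11 had another member within 20 bp, as had 2 of the 33 transitions.

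Adjacent members formed 4 pairs, or 8 of the 50 (16%, 7.17% to 29.1%), against 27 of the 624 nuclear members (4.33%, 2.87% to 6.23%). In 2 of the pairs the listed bases are the reference bases in swapped order: A10952C with C10953A, where the reference AC is listed as CA, and T13289A with A13290T, where TA is listed as AT. The other pairs were A8944G with C8945A and G11916C with G11917C. None of the 14 adjacent nuclear pairs was swapped (0 of 14). T13293A lay 3 bp beyond A13290T, and T10925G and T10935A lay 10 bp apart. The tables do not say whether neighbouring differences stood on the same reads.

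Spacing by 3, the length of a codon, was looked at after the positions had been seen. Between neighbouring members at most 500 bp apart, 15 of 39 gaps were multiples of 3 (38.5%, 23.4% to 55.4%), with 12 of 21 between neighbouring transitions and 1 of 11 between neighbouring transversions. Between neighbouring positions listed in 1 library, 517 of 2163 gaps were (23.9%). The median gap was 3 bp over all positions and 162 bp between members, so these shares are not alike. The stretch from 1501 to 3000 was picked because the pattern was seen there. Of the 10 members between positions 1501 and 3000, 9 had a position divisible by 3 and 1 left a remainder of 1. Of 333 positions in 1 library in the same stretch, 114 (34.2%) were divisible by 3. Elsewhere 13 of 40 members were (32.5%), so the pattern was seen in that stretch and not over the rest of the genome taken as 1 frame. Without a dm3 annotation, reading frames could not be assigned.

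The remaining 13 of the 63 were not on both strands in every library. A3094G, T11295A and C12802T were listed on the forward strand alone in all 4 libraries. G4983T and C7130T were on a single strand in each library, but on different strands in different libraries. G710A, C2868T, A9577G and T12329A were on both strands in 3 libraries, A3143T and G13733A in 2, and G3649A and A9556G in 1.

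Between instruments, the NextSeq tables held more mitochondrial positions but a smaller mitochondrial share. Differing positions averaged 1069.5 ± 234 in NextSeq and 576 ± 82.0 in HiSeq (SD, n = 2 each), a ratio of 1.86. Mitochondrial differences were 0.171% ± 0.0731 of all differences in NextSeq and 0.413% ± 0.0970 in HiSeq, a difference of -0.242 points. Their A-to-G and T-to-C share was 16.4% ± 0.553 in NextSeq and 26.8% ± 2.96 in HiSeq, a difference of -10.4 points. The nuclear share also differed between instruments, at 5.83% and 4.90% in NextSeq and 20.2% and 21.9% in HiSeq. For each of these mitochondrial measures the libraries of the instruments did not overlap. The two-sided exact permutation p was 0.33 for each, the smallest that 2 against 2 allows.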

How the data were processed

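The deposited tables list chromosome, position, reference base and differing base for each of 4 mock-treated head libraries, per the file headers. These values are base letters (another kind of value than counts) and come without read counts, quality or level. Each table was tied to its sample by the sample title in its name. Per the labels' protocols, the authors mapped reads to dm3 with TopHat 2.0.6 and Bowtie 2.0.2 (4 mismatches, 1 alignment kept) and remapped the rest with bsmap 2.74 (3 mismatches, option -M GA). The submitters' processing notes also name SAMtools 0.1.19. The calling of differences is not given in sources used here. The mismatch limits cap how many differences a read can carry, and with 1 alignment kept, reads of nuclear copies of mitochondrial DNA could be placed on either.

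Letter case was read as strand, as in a pileup; the files do not state this. Lines were collapsed to distinct position and base. Shares have exact (Clopper-Pearson) 95% intervals, covering counting error only. Mitochondrial and nuclear shares were compared by exact sign-flip permutation over 4 libraries, instruments by exact permutation of 2 against 2, all two-sided, with Benjamini-Hochberg adjustment over 12 kinds. Steps were tested on simulated data. Python 3.11.15, pandas 2.3.3 and scipy 1.17.1 were used. The members, lists and tests were chosen with earlier results of these data known. Named were all 12 kinds and the 5 densest and 5 sparsest of the 32 windows. So were 10 differences on both strands in all libraries, with the fewest other bases and then by position. Alternatives were window sizes, every line, 1 alternative base, recurrent differences, dense nuclear windows, equal weight per reference base, and leaving out each library or the differences in all 4. The equal weights, the omission of differences in all 4 libraries and the window densities without each library were chosen after seeing the data. Of the 20 samples, 16 were not analysed here.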

Additional observations from a re-analysis of the deposited data

Results flagged for a closer look

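For 3 kinds of change, the mitochondrial share lay on one side of the nuclear share in both NextSeq libraries and on the opposite side in both HiSeq libraries. A-to-C differed by -1.03 points in NextSeq and 1.08 points in HiSeq. A-to-T differed by -1.30 points in NextSeq and 2.51 points in HiSeq. T-to-A differed by -1.37 points in NextSeq and 2.81 points in HiSeq. The exact permutation test of each difference between instruments gave p = 0.33, the smallest that 2 libraries against 2 allow. Instrument and read length cannot be told apart.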

How the results depend on the processing

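Of 213 values recomputed under alternatives, 193 were classed as the same, 4 as moved and 16 changed sign. Some of the 193 changed much in size. They include counts of kinds, window densities and a recurrence share, which have no direction. They also include the replicate-block differences, which equal the reported ones by construction. Large changes came with reference bases weighted equally, as for G-to-A (18.9, against 0.666 points as reported) and C-to-T (18.5, against 2.27 points as reported). The both-strand difference of 7.37 points became 1.25 without differences in all 4 libraries, and that of positions with more than 1 base, 1.77 points, became 0.300 for differences in 2 or more libraries. Positions with more than 1 base changed sign against dense nuclear windows (-0.0754 points). A-to-C (0.0221 points) became -0.166 for differences in 2 or more libraries, -0.0762 against dense windows, -0.350 at positions with 1 alternative base, -0.0415 over every line, -2.89 with reference bases weighted equally, and -0.553 to 0.598 with 1 library left out (-0.106 without HiSeq replicate 2). A-to-T became -1.55 for differences in 2 or more libraries, -0.137 over every line, -4.67 with equal weights and -0.738 (without HiSeq replicate 2) to 1.60 with 1 library left out. T-to-A became -1.44 for differences in 2 or more libraries, -0.442 with equal weights and -0.106 (without HiSeq replicate 2) to 1.57 with 1 library left out. G-to-A became -0.176 with differences in all 4 libraries left out. The cause was not tested. The share of differences in every library was 3.00% to 3.82% with 1 library left out, where fewer libraries have to list them. With the replicate number as a block, NextSeq minus HiSeq was -0.242 points, -10.4 points and 493.5 positions. The exact sign-flip permutation p was 0.5, the smallest for 2 pairs. Deviations of same-numbered libraries over the 12 kinds had a correlation of 0.0662, and crossed ones -0.0662 by construction. With 2 libraries per instrument, this correlation does not decide whether the numbers pair the libraries. Same-numbered libraries shared more differences than crossed ones, as given above, but the labels do not tell whether they share a preparation. With no read counts, unlisted positions cannot be read as unchanged, and nothing here separates RNA from DNA differences. Differences at transcript 3′ ends were not run, for want of a dm3 annotation here.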
